A study of Mus musculus with 16 samples.

Results

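The replication-dependent histone genes are the clustered genes that in the array's naming begin with Hist1h, Hist2h, Hist3h or Hist4h, and they were chosen here by that name alone. Of the 55681 probes on the array that are not controls, 57 carried such a name, for 49 genes. By histone type these were 6 probes for the linker histone H1, 16 for H2A, 13 for H2B, 8 for H3 and 14 for H4. According to the probe positions in the files (mouse build mm9), 41 probes lie on chromosome 13, 11 on chromosome 3, 3 on chromosome 11 and 2 on chromosome 6.

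The cells were RAW 264.7, a mouse macrophage-like tumour cell line. All cultures spent the 24 h before treatment, and the treatment itself, in medium with little serum (0.5% FBS). DMSO cultures received the vehicle for 120 min. The cordycepin cultures received cordycepin (3′-deoxyadenosine, an adenosine analogue that inhibits polyadenylation) at 20 μM in DMSO for 120 min. LPS+DMSO and LPS+cordycepin cultures had the same additions, with bacterial lipopolysaccharide at 1 μg/ml for the last 60 of the 120 min, so that the pre-treatment lasted 60 min. Each condition had 4 biological replicates, each number from a day of its own, and each culture gave 1 array (16 arrays). It is a single tumour line, and no sorted or primary macrophages are compared here. All 8 macrophage markers on a list (among them Cd68, Csf1r, Itgam and Lyz2) were well above background on all 16 arrays. Of the other cell types' markers, Cd3e of T cells was also above background on all arrays, whereas Cd3g, Ms4a1, Col3a1, Pdgfra, Cdh1 and Krt18 were above background on no array.

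Histone proteins package newly made DNA, and a dividing cell makes the mRNAs of the clustered genes mainly in S phase. These are the metazoan mRNAs that as a rule carry no poly(A) tail. Their 3′ end is formed by a cut just behind a conserved stem-loop, which is bound by SLBP and recognised with the help of the U7 small nuclear ribonucleoprotein, and many of the genes also hold poly(A) signals farther downstream, from which longer, tailed mRNAs can be made. The labelling kit named in the labels copies RNA from an oligo(dT) primer, so the array may read the tailed and the untailed forms of these mRNAs unequally. What share of a probe's reading came from each form was not tested.

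Where a probe lies relative to the stem-loop can be read in part from the probes themselves, which are 60 bases long. The files also give a start value for each probe without defining it. It was read here as the position at which the probe starts on its target transcript, and is called its base position. The stem-loop was searched as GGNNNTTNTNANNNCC on both strands. On the probe strand 6 of the 57 histone probes held it, against 48 of all 55681 probes (0.0862%), and on the other strand none of the 57 did (50 of all probes, 0.0898%). These 6 windows of 30 bases, read from the array files with the stem-loop in capitals, show the letters where this class of mRNA normally ends:

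Hist1h3a: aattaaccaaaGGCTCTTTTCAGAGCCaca
Hist1h3i: ataacaaaaGGCTCTTTTCAGAGCCccctc
Hist2h2aa2: taaaaaGGCTCTTTTCAGAGCCacccactg
Hist2h2bb: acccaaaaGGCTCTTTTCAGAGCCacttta
Hist1h3g: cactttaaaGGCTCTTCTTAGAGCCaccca
Hist1h4m: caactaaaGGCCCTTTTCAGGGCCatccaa

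The form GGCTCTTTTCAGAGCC stood in the first 4 of these and in no other probe of the array. In Hist1h3g the loop differed and in Hist1h4m the stem. A further 2 probes held the stem-loop in part, Hist1h2ab at its 3′ end and Hist1h2ae at its 5′ end:

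Hist1h2ab: gaaagttaaccaaaacaaaGGCTCTTTTCA
Hist1h2ae: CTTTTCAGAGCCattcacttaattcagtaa

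The whole stem-loops lay between bases 384 and 591 of their target transcripts. Of the 51 core histone probes (H2A, H2B, H3 and H4), 9 start at base 591 or beyond. They can read only transcripts that continue past the place where the stem-loop was found in other genes, if the genes are built alike. The limit is the farthest of any histone type, so other probes may also start beyond the stem-loop of their own gene. H1 genes have a longer coding part and were left out of this division. Among these 9 were the only 3 histone probes called changed under cordycepin, whose last 30 bases are:

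Hist2h2be: tacttacttgggattctgccatacactgaa
Hist3h2a: ttgaaactgggttaaattgacatgttcaag
Hist2h3c2: ataattacatcaccagacttctggaaaaaa

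A poly(A) signal, searched as AATAAA or ATTAAA, was in 5 of the 57 histone probes (13.7% of all probes held one on the probe strand). The window of Hist2h2bb farther downstream and that of Hist1h2be are shown, with the signal in capitals:

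Hist2h2bb: gttgtcagtttgAATAAAgacagagaaact
Hist1h2be: gtactgttcattATTAAAgcattcctgatt

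The other 3 were in Hist3h2ba, in Hist1h4i and in Hist1h2ag, where the letters run through the stop codon. Whether the letters act as a poly(A) signal was not tested for any probe. None of the 3 called probes held either signal, which says only that the letters are not in these windows.

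Many coding parts are nearly the same from gene to gene. Of the 57 probes, 10 were at least 80% identical, over at least 45 bases, to a probe of another histone gene. The last 60 coding bases of 4 H2A genes show this, with the bases that differ from the first one in capitals (5, 6 and 8 bases):

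Hist1h2an: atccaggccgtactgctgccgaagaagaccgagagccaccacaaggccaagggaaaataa
Hist1h2af: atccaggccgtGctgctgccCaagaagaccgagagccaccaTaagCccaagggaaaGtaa
Hist1h2ak: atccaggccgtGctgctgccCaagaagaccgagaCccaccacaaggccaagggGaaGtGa
Hist2h2aa2: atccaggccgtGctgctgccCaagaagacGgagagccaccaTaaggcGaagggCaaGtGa

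Such probes can bind each other's mRNA, so they are read here as H2A or H4 sequence rather than as single genes. The 3 called probes shared no run longer than 14 bases with a probe of any other gene.

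The test took in each probe that all 4 arrays of some condition read well above background, which held for 48 of the 57 histone probes (42 genes) and for 21597 of all probes. Of these 48, 42 were well above background on all 16 arrays. By type 4 H1, 14 H2A, 10 H2B, 8 H3 and 12 H4 probes were tested. The 9 not tested were those of Hist1h1d, Hist1h1t (the testis H1), Hist1h2ac, Hist1h2al, Hist1h2bp, Hist3h2ba, Hist3h2bb-ps, the upstream probe of Hist2h4 and the downstream probe of Hist4h4. The probes of Hist1h1d, Hist3h2ba and Hist3h2bb-ps and the downstream probe of Hist4h4 were above background on no array. No histone spot was saturated or marked as an outlier.

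DMSO replicate 2 stood apart. On this array 6.16% of all tested probes were more than 2-fold from the mean of the other 3 DMSO arrays, against 0.435% to 4.45% for the other 15 arrays in the same comparison with their own condition. Of the 48 histone probes, 30 had the lowest value of the DMSO condition on it and 9 the highest. Where leaving it out turned the sign of a named value or moved it by over 1.5 times, both values are given.

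In cells without LPS, cordycepin raised 1 histone probe and lowered none with a change of 2-fold or more and an adjusted p below 0.05 (limma with Benjamini-Hochberg adjustment over the 21597 probes). Among all tested probes 5.55% were called higher and 1.08% lower. The called probe reads Hist2h2be (NM_178214, now H2bc21), an H2B gene of the cluster on chromosome 3, at chr3:96026893-96026952 on the plus strand and base 1849 of its transcript. Normalized log2 intensities were 7.86, 7.54, 7.68 and 7.43 on the DMSO arrays and 8.90, 8.97, 8.96 and 9.03 on the cordycepin arrays. Every cordycepin array was above every DMSO array, and the 4 cordycepin values lay close together. The log2 change was 1.34 ± 0.12 (SE, n = 4 per condition), or 2.53-fold (adjusted p = 1.32e-06, limma).

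Hist3h2a (NM_178218, now H2aw), an H2A gene outside the large clusters, was lower without reaching 2-fold. Its probe lies at chr11:58768954-58769013 on the plus strand, base 767. Log2 intensities were 10.67, 10.94, 10.63 and 10.53 with DMSO and 10.00, 10.09, 9.67 and 9.97 with cordycepin. The ranges of the conditions did not overlap. The log2 change was -0.76 ± 0.14 (adjusted p = 0.00126, limma), and without a minimum fold 7.05% of all probes were called lower. When arrays were scaled to spiked-in controls the change was -0.70 and the adjusted p 0.605. On such arrays, fewer cells in S phase and less histone mRNA per cell cannot be told apart.

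In LPS-treated cells, cordycepin raised the same H2B probe and lowered 2 others, one of H2A and one of H3. The background was 7.11% of all probes called higher and 1.61% lower. Hist2h2be stood at 7.59, 7.52, 7.17 and 7.36 on the LPS+DMSO arrays and at 8.89, 9.20, 8.87 and 8.70 on the LPS+cordycepin arrays. The conditions did not overlap here either. The log2 change was 1.51 ± 0.12, or 2.84-fold (adjusted p = 2.97e-07, limma).

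Hist3h2a was 10.77, 10.75, 10.60 and 10.47 with LPS+DMSO and 9.72, 9.67, 9.22 and 9.17 with LPS+cordycepin. All 4 days showed the decrease, between -1.05 and -1.37 when cultures of one day were compared. The log2 change was -1.20 ± 0.14, a 2.30-fold decrease (adjusted p = 1.23e-05, limma).

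Hist2h3c2 (BC015270, now H3c15), which encodes the H3.2 form of H3, was read at chr3:96042034-96042093 on the minus strand, base 957. Log2 intensities were 9.07, 8.94, 8.73 and 8.90 with LPS+DMSO and 8.26, 8.10, 8.02 and 6.85 with LPS+cordycepin. The conditions did not overlap, but replicate 4 of LPS+cordycepin was well below the other three. The log2 change was -1.10 ± 0.29, or 2.15-fold (adjusted p = 0.0119, limma). Without that array it was -0.78 and under 2-fold (adjusted p = 0.0277, limma).

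Without LPS, the Hist2h3c2 probe gave 8.41, 9.57, 8.54 and 8.44 with DMSO and 8.42, 8.38, 8.03 and 7.98 with cordycepin. The high value was again that of DMSO replicate 2, and the ranges overlapped. The log2 change of -0.54 ± 0.29 did not pass the test (adjusted p = 0.246, limma), and without that array it was -0.26. Without it Hist2h2be changed by 1.31 and Hist3h2a by -0.68.

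**Figure D1:**
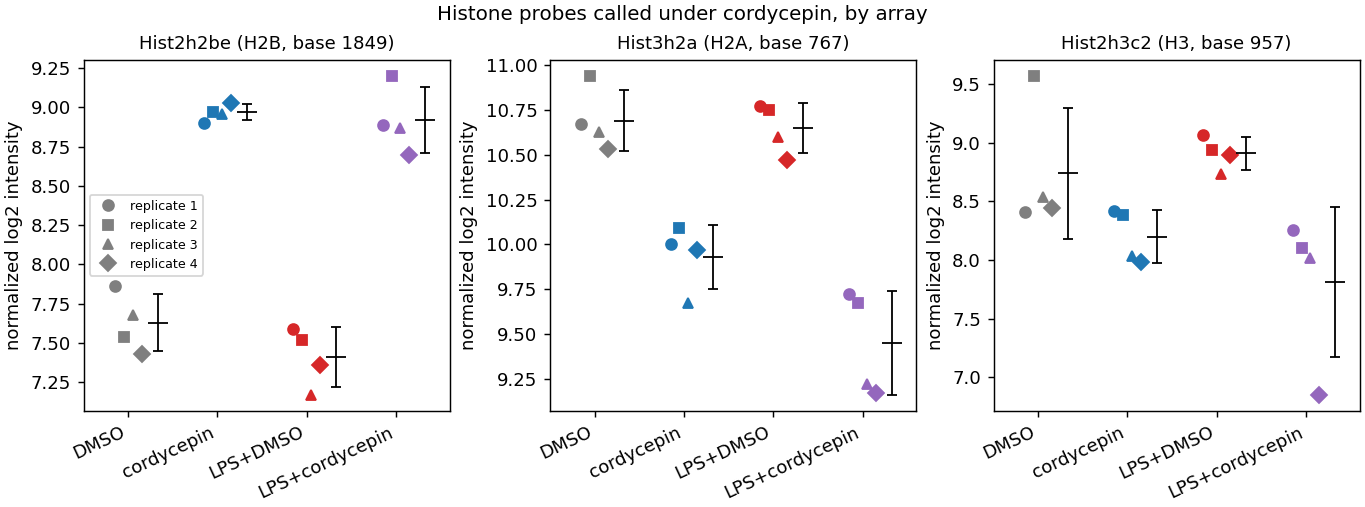
Normalized log2 intensity (y axis) of the 3 called histone probes on each of the 16 arrays, by condition (x axis). Symbols mark the replicate number, and the bar beside each condition is the mean ± SD of its 4 arrays. Hist2h2be is higher in both cordycepin conditions (means 8.97 and 8.92) than in DMSO and LPS+DMSO (7.63 and 7.41), Hist3h2a is lower, and for Hist2h3c2 single arrays at 9.57 and 6.85 widen the spread.

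No difference in the response of these 3 probes to cordycepin between cells with and without LPS passed the test. The interaction, which is the cordycepin change with LPS less that without, was 0.17 ± 0.17 for Hist2h2be (adjusted p = 0.935, limma), -0.44 ± 0.20 for Hist3h2a (adjusted p = 0.643, limma) and -0.56 ± 0.41 for Hist2h3c2 (adjusted p = 0.895, limma). Their 95% intervals ran from -0.21 to 0.54, from -0.88 to -0.01 and from -1.44 to 0.31.

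Neighbouring genes in the cluster on chromosome 3 were not called. Hist2h2ac and Hist2h2ab, both H2A genes, are read at chr3:96024378-96024437 and chr3:96024171-96024230, beside Hist2h2be on the same chromosome, and Hist2h3c2 lies farther along the cluster. These neighbours were chosen after their values were seen. The probe of Hist2h2ac shares a run of 42 bases with that of Hist1h2ah, so it may also read H2A mRNA from other clusters. Hist2h2ac changed by 0.13 ± 0.15 without LPS and 0.08 ± 0.15 with it, and its 95% intervals ran from -0.19 to 0.44 and from -0.23 to 0.40. Hist2h2ab gave 0.71 ± 0.27 (adjusted p = 0.0942, limma) and 0.04 ± 0.27. Without DMSO replicate 2 the values of Hist2h2ac and Hist2h2ab in cells without LPS were -0.02 and 0.41. With LPS both values turned sign when arrays were scaled to spiked-in controls (-0.07 and -0.11).

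The other 47 histone probes without LPS, and the other 45 with LPS, were not called in the cordycepin comparisons. For 38 of the 47 and 39 of the 45, the 95% interval of the log2 change lay within 2-fold in either direction. The median over the 48 tested probes was 0.08 without LPS (all probes, 0.04) and 0.00 with LPS (all probes, 0.03). Of the 48, 19 lay below 0 without LPS (39.6%, against 42.8% of all probes) and 24 with LPS (all probes, 44.1%). Without DMSO replicate 2, 30 of the 48 lay below 0 in cordycepin against DMSO (62.5%). Shares and medians of all probes are not given for the fit without that array, here or below. The 62.5% can therefore not be set against the 42.8%. At an unadjusted p under 0.05 (limma) there were 8 in each comparison (16.7%), the called ones included, against 28.4% of all probes without LPS and 28.8% with it.

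The 4 linker histone H1 probes read Hist1h1a, Hist1h1b, Hist1h1c and Hist1h1e, the H1 forms of dividing somatic cells. None was called. Without LPS their changes ranged from -0.16 (Hist1h1c) to 0.28 (Hist1h1b), with a median of 0.15. The value of Hist1h1b rested on DMSO replicate 2 and was -0.10 without that array. With LPS they ranged from -0.47 for Hist1h1c (adjusted p = 0.173, limma) to 0.00 for Hist1h1e, with a median of -0.08. The probe of Hist1h1c starts at base 1342, farther downstream than those of the other three.

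For H2A, 14 probes were tested, and the median changes were 0.13 and 0.08. Beside Hist3h2a, the lowest value with LPS was that of Hist1h2aa, a histone of the testis. Its log2 intensities were 7.40, 7.17, 7.64 and 6.98 with LPS+DMSO and 6.24, 6.44, 6.35 and 7.05 with LPS+cordycepin, where replicate 4 alone lay among the control values. The change of -0.78 ± 0.26 passed the adjusted p (0.0481, limma) but not the fold, a criterion that 8.19% of all probes met in this direction. The highest H2A values were those of Hist2h2ab without LPS (0.71) and of Hist1h2ah with LPS (0.14 ± 0.17). The 6 H2A probes similar to each other, which bind coding sequence, are part of a narrow band, and over all 10 similar probes the changes ran from -0.20 to 0.43 without LPS and from -0.13 to 0.14 with it.

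For H2B, 10 probes gave medians of -0.14 and -0.06. Hist2h2be was the highest in both comparisons. The lowest without LPS was Hist1h2bq, whose log2 change of -0.85 ± 0.66 came from a dim probe, well above background on 11 of the 16 arrays and on 3 of 4 with cordycepin. The lowest with LPS was Hist1h2bg (-0.44 ± 0.29, adjusted p = 0.370, limma).

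For H3, 8 probes gave medians of 0.02 and -0.02. The highest in both comparisons was Hist1h3g (0.57 ± 0.23 and 0.31 ± 0.23), a probe that holds the stem-loop, and neither value passed the test (adjusted p = 0.103 and 0.427, limma). The first of them was 0.35 without DMSO replicate 2. The lowest in both was Hist2h3c2.

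For H4, 12 probes gave medians of 0.17 and -0.05. Without LPS the values ran from -0.32 ± 0.37 for Hist1h4m to 0.43 ± 0.18 for Hist1h4j (adjusted p = 0.122, limma), which was 0.21 without DMSO replicate 2. With LPS they ran from -0.43 ± 0.20 for the probe of Hist1h4i at base 483 to 0.63 ± 0.22 for Hist1h4h (adjusted p = 0.0623, limma). The value of Hist1h4i rested on replicate 2 of LPS+cordycepin and was -0.17 without that array. Its probe at base 483 shares a run of 21 bases with a probe of Galns, so it may also read other RNA. The other probes of Hist1h4i, at bases 23 and 574, gave -0.16 and -0.24 with LPS. The medians in cordycepin against DMSO became -0.11 for H1, -0.02 for H2A, -0.17 for H2B, -0.16 for H3 and 0.09 for H4 without DMSO replicate 2.

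**Figure D2:**
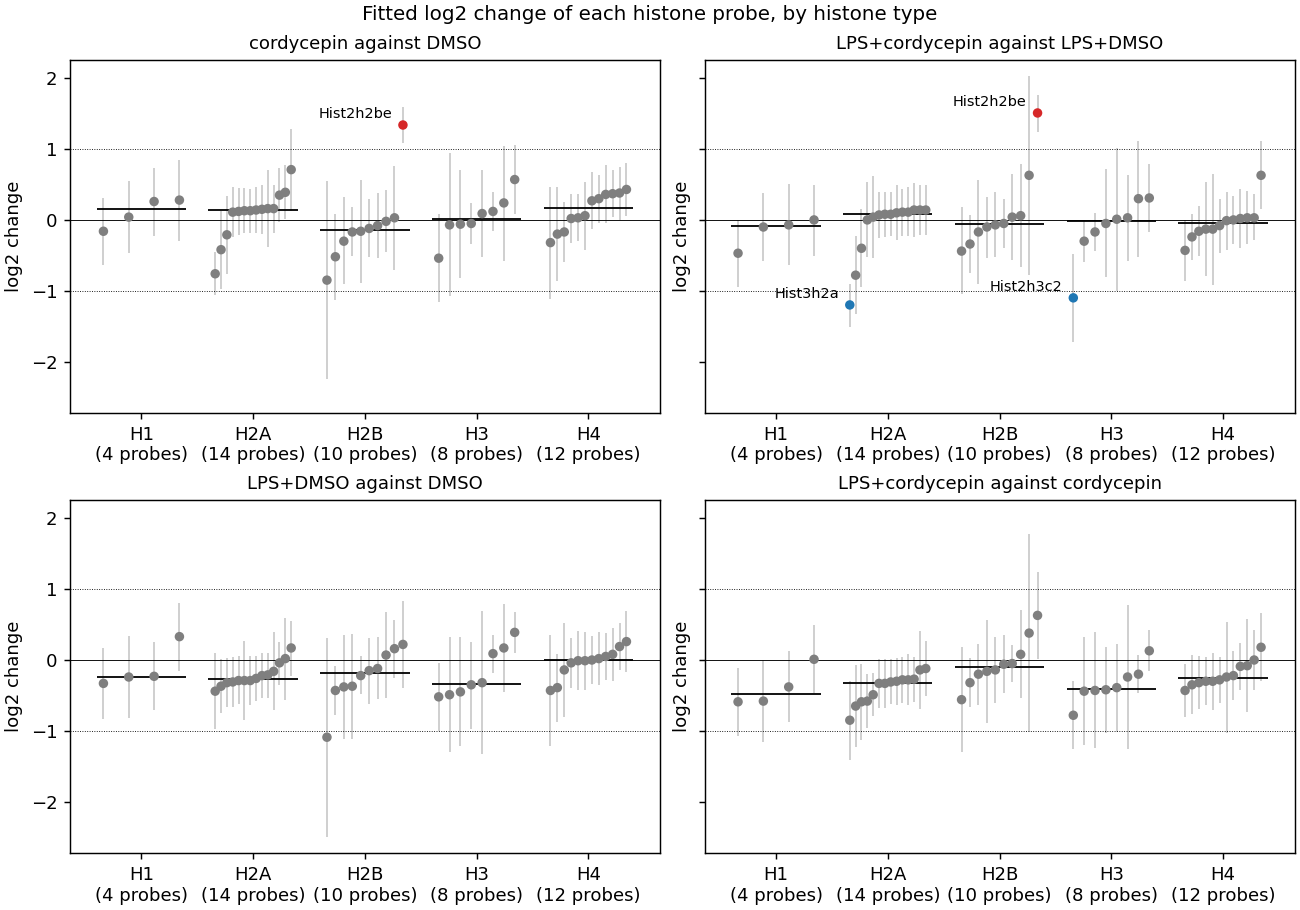
Fitted log2 change (y axis) of each of the 48 tested histone probes, by histone type (x axis), in the comparisons of cordycepin with DMSO (top) and of LPS with no LPS (bottom). Grey lines are 95% intervals, black bars the median of the type, dotted lines 2-fold, red points called higher and blue points called lower. The called probes stand outside a band of values near 0, and no probe is called in the LPS comparisons.

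By position, the 3 called probes start beyond the stem-loops. Of the 9 core histone probes there, 7 were tested, and 3 of the 7 were called with LPS and 1 of the 7 without (of all probes, 7.11% higher and 1.61% lower with LPS, and 5.55% and 1.08% without). Of the 37 other core histone probes tested, none was called in either comparison. An unadjusted p under 0.05 (limma) was found for 4 of the 37 with LPS and 6 without. Of all probes, 28.8% with LPS and 28.4% without met this criterion. Some of the 37 lie largely past a stem-loop. The Hist2h2aa2 probe at base 569 holds it near its 5′ end, and the Hist1h2ae probe starts within it. Others of the 37 may also lie past the stem-loop of their own type. Whole stem-loops lay in probes starting at base 345 for H4 (Hist1h4m) and at base 433 for H2B (Hist2h2bb). The probes of Hist1h4i at bases 483 and 574 and of Hist1h2bg at base 554 start farther downstream than these. The division at base 591 was made with the values known and has no test of its own. The 7 did not share a direction. With LPS they ran from -1.20 (Hist3h2a) to 1.51 (Hist2h2be), with Hist1h2bc at -0.34, Hist1h2be at -0.05, Hist2h2bb at 0.04 and Hist1h2bq at 0.63. Without LPS, 6 of the 7 lay below 0, with Hist1h2bc at -0.12, Hist1h2be at -0.17, Hist2h2bb at -0.52 and Hist1h2bq at -0.85. It was 5 of the 7 without DMSO replicate 2, and Hist1h2bc was at 0.05, Hist2h2bb at -0.15 and Hist2h3c2 at -0.26. The 37 other core probes ranged from -0.42 to 0.71 without LPS and from -0.78 to 0.63 with it, so that several of them changed by more than Hist1h2bc and Hist1h2be. The 6 probes that hold the whole stem-loop had medians of -0.12 (-0.24 without DMSO replicate 2) and 0.03. In Hist2h2aa2 the stem-loop lies near the 5′ end of the probe, and in the others among the last 30 bases. The 4 tested probes with the letters AATAAA or ATTAAA had medians of -0.17 and 0.00. In Hist1h2ag these letters run through the stop codon, and the Hist1h4i probe shares a run of 21 bases with a probe of Galns.

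**Figure D3:**
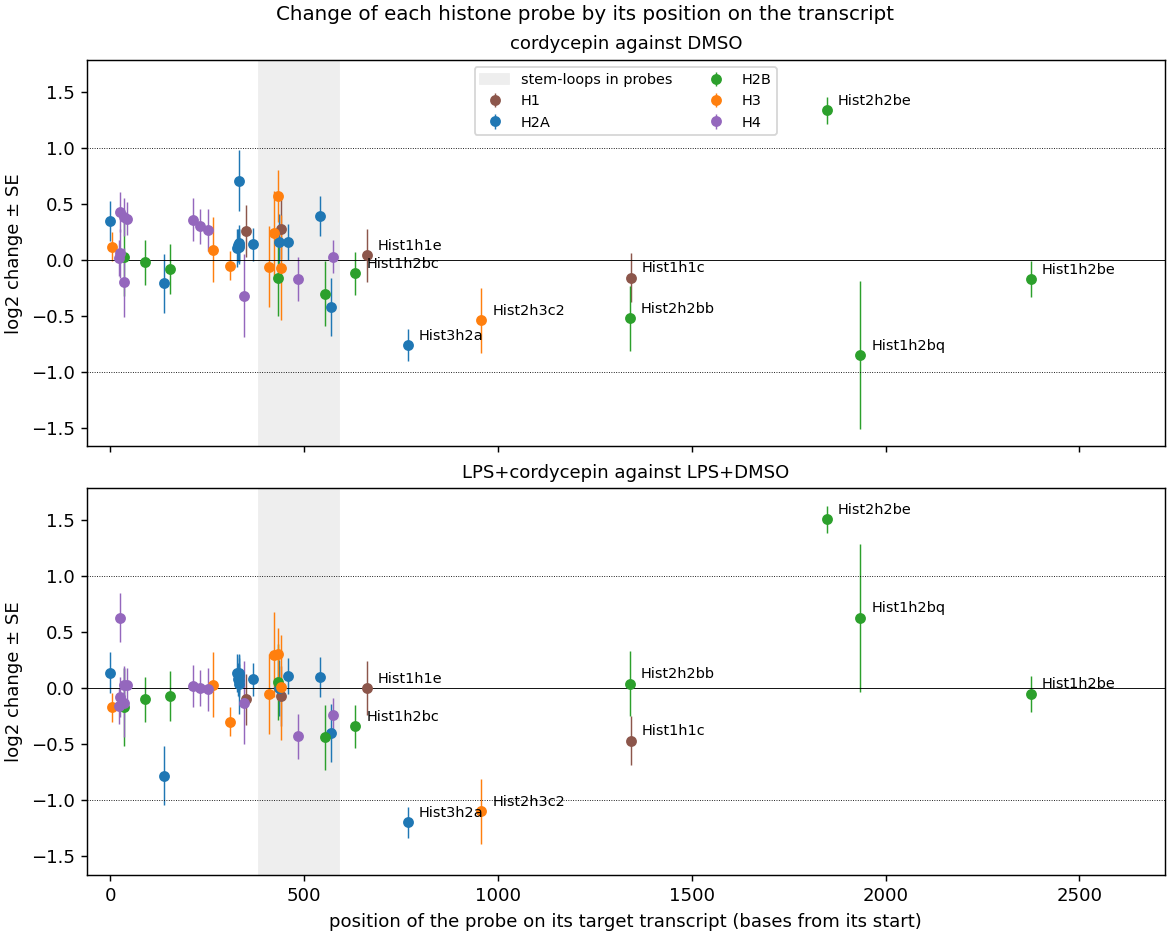
Log2 change under cordycepin (y axis, ± SE) against the start value of each probe, read as its position on the target transcript (x axis, bases), without LPS (top) and with LPS (bottom). Colours mark the histone type and the grey band the stretch, bases 384 to 591, in which whole stem-loops were found. Probes to the left of the band stay within 2-fold, and Hist2h2be at base 1849, Hist3h2a at 767 and Hist2h3c2 at 957 lie to its right.

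Genes with 2 probes allow the same question within a gene, if both probes read the same transcript. The downstream less the upstream probe was taken on each array, centred on its mean over the 16 arrays, and compared by a two-sided exact permutation test (4 arrays against 4, for which 0.0286 is the smallest p). This test treated the arrays as exchangeable and did not pair them by day or slide, although arrays shared both. There were 8 such comparisons for 4 genes, chosen with the values known. For Hist2h2aa2, base 569 less base 457 averaged 0.34 ± 0.14 (SD) with LPS+DMSO and -0.18 ± 0.18 with LPS+cordycepin, a difference of -0.51 (exact p = 0.0286, 0.0763 after Benjamini-Hochberg adjustment). The arrays of these conditions did not overlap, the stem-loop probe being lower relative to the coding probe with cordycepin, but the adjusted p did not pass 0.05. In the fit over all probes the stem-loop probe changed by -0.40 ± 0.26 (adjusted p = 0.361, limma), or with the same value but an adjusted p of 0.00139 when DMSO replicate 2, which widened the spread of this probe, was left out.

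Without LPS the same difference was -0.57 (exact p = 0.457), and it rested on DMSO replicate 2 at 1.88, whereas the other 3 DMSO arrays lay between -0.53 and -0.21 and the cordycepin arrays between -0.45 and -0.26. Without it the difference was -0.01. For Hist2h2bb (base 1340 less base 433) the differences were -0.36 and -0.01, and for Hist1h4i (base 574 less base 23) 0.01 and -0.08, each smaller than the spread between arrays (exact p between 0.686 and 0.971). For Hist2h2bb the value without LPS again rested on DMSO replicate 2, at 1.81 against -1.27 to -0.13 on the other DMSO arrays, and was 0.29 without it. The 2 probes of Hist2h2bb were designed on different target transcripts, at chr3:96074056-96074115 (base 433) and chr3:96082754-96082813 (base 1340). The latter shares a run of 42 bases with a probe named only by a stretch of chromosome 3. Whether both read one transcript was not tested, so their difference cannot be taken as one within a transcript. The 2 probes of Hist1h4i at bases 574 and 23 were also designed on different target sequences. Hist2h2aa2 has a near-identical copy in the same cluster, and the arrays cannot tell the copies apart. Its probe at base 457 is also similar to probes of 5 other histone genes. The difference for Hist2h2aa2 may therefore set its stem-loop probe against H2A mRNA of several genes.

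A replacement histone gave the largest difference of the 8 comparisons. H2afj encodes H2A.J, an H2A made outside S phase from polyadenylated mRNA, and is no member of the clusters. Its downstream probe, at base 1664, stood at 11.50, 11.10, 11.44 and 11.83 with DMSO, 12.91, 12.95, 13.26 and 13.27 with cordycepin, 10.79, 10.72, 10.76 and 11.10 with LPS+DMSO and 12.89, 12.67, 13.16 and 13.41 with LPS+cordycepin. It was higher with cordycepin on every array, by 1.63 ± 0.17 without LPS (adjusted p = 5.32e-06, limma) and 2.19 ± 0.17 with it (adjusted p = 1.96e-07, limma). The probe at base 412, in the coding part, changed by 0.16 ± 0.15 (-0.01 without DMSO replicate 2) and 0.08 ± 0.15. The difference between the probes changed by 1.48 without LPS and 2.11 with LPS (exact p = 0.0286 each, adjusted p = 0.0763). The coding probe shares a run of 38 bases with that of Hist2h2aa2, so that it may also read clustered H2A mRNA.

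**Figure D4:**
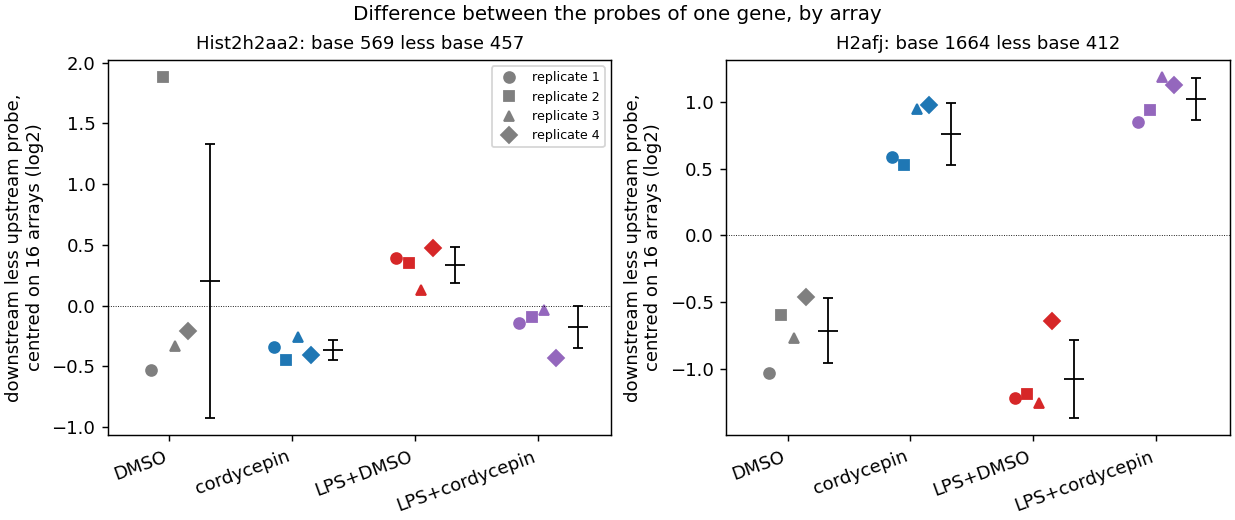
Downstream less upstream probe of Hist2h2aa2 (left) and H2afj (right) on each array, in log2 units and centred on the mean of the 16 arrays (y axis), by condition (x axis), with the mean ± SD of 4 arrays beside the points. For H2afj all 8 cordycepin arrays lie above 0 and all others below, and for Hist2h2aa2 the DMSO replicate 2 array stands alone at 1.88.

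LPS itself called no histone probe, in the absence or in the presence of cordycepin. With DMSO, the background was 2.15% of all probes called higher and 2.71% lower, and with cordycepin 1.64% and 1.35%. At an unadjusted p under 0.05 (limma) there were 3 of the 48 histone probes in DMSO (6.25%, against 25.8% of all probes) and 10 in cordycepin (20.8%, against 17.9%), and the methods' t-test also gave 0 at 2-fold. The values were mostly negative. The median log2 change with LPS was -0.21 in DMSO (all probes, -0.04) and -0.29 in cordycepin (all probes, -0.05). Of the 48 probes, 33 lay below 0 in DMSO (68.8%, against 56.7% of all probes) and 41 in cordycepin (85.4%, against 59.9%). By type, the medians in DMSO were -0.24 for H1, -0.27 for H2A, -0.19 for H2B, -0.34 for H3 and 0.00 for H4. In the same order they were -0.51, -0.39, -0.28, -0.61 and -0.20 without DMSO replicate 2. In cordycepin they were -0.48 for H1, -0.32 for H2A, -0.10 for H2B, -0.41 for H3 and -0.26 for H4, and all 14 H2A probes were below 0. By day the median over the 48 probes was -0.46, 0.22, -0.15 and -0.43 in DMSO and -0.26, -0.62, -0.16 and -0.11 in cordycepin. The positive value was that of replicate 2, whose DMSO array stood apart.

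The single probe past an adjusted p of 0.05 was that of Hist1h3g, which without a minimum fold was lower with LPS+cordycepin than with cordycepin. Its log2 intensities were 8.98, 9.57, 9.53 and 8.81 with cordycepin and 8.40, 8.78, 8.47 and 8.11 with LPS+cordycepin. The conditions did not overlap, and the change was -0.78 ± 0.23 (adjusted p = 0.0466, limma), where 4.50% of all probes were called lower by the same criterion and 3.38% higher. In DMSO that criterion called 5.03% of all probes higher and 9.40% lower with LPS, and no histone probe. In DMSO the same probe changed by -0.52 ± 0.23 with LPS (adjusted p = 0.158, limma). The interaction called no histone probe (0.194% of all probes higher and 0.148% lower), and 1 had an unadjusted p under 0.05 (2.08%, against 7.46% of all probes), that of Hist3h2a.

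Between arrays of one condition the histone values spread most with DMSO for H1, H2A, H3 and H4, but not for H2B. For each array the median deviation of the 48 probes from their own means was taken. It ranged from -0.42 to 0.41 among the DMSO arrays, from 0.05 to 0.24 among the cordycepin arrays, from -0.33 to 0.08 with LPS+DMSO and from -0.38 to 0.08 with LPS+cordycepin. On DMSO replicate 1 every type was above 0, and on LPS+DMSO replicate 4 every type was below. On DMSO replicate 2, H1 was at -0.58, H2A at -0.42, H3 at -0.50 and H4 at -0.59, whereas H2B was at 0.09. These are descriptions of arrays that share days, slides and scaling. By day the median change with cordycepin was -0.17, 0.62, -0.10 and 0.06 without LPS for replicates 1 to 4, and -0.06, -0.26, -0.28 and 0.32 with LPS. Neither sign held on all days. Without DMSO replicate 2 the median for cordycepin against DMSO over all days was -0.05, and that for LPS in DMSO -0.34.

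**Figure D5:**
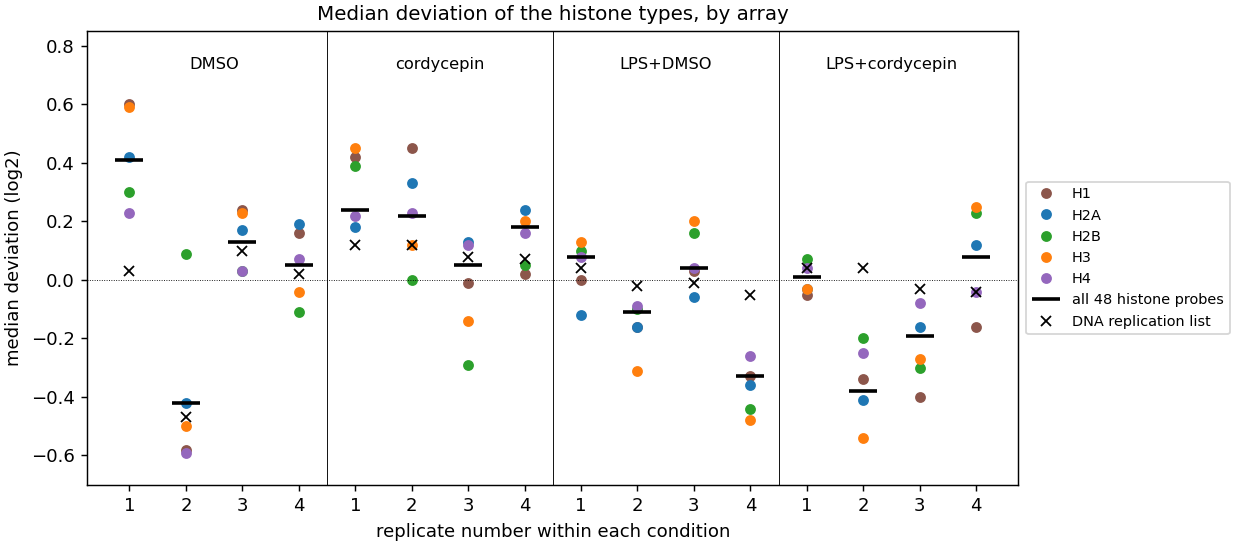
Median deviation (y axis, log2) of the probes of each histone type from their own means over the 16 arrays, for each array (x axis, replicate number within condition). Bars mark all 48 histone probes and crosses the DNA replication list. The histone medians of single arrays run from -0.42 to 0.41, and the DNA replication list lies near 0 except on DMSO replicate 2 (-0.47).

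On DMSO replicate 2, 4 of the 9 probes with the highest value of the condition start at base 591 or beyond (Hist2h2bb, Hist2h3c2, Hist1h2bc and Hist3h2a), as do 7 of all 48 tested histone probes. Those of Hist1h2bg and of Hist1h4i at bases 483 and 574 may also lie past the stem-loop of their own type. The Hist2h2aa2 probe at base 569 lies largely past the stem-loop that it holds. The 9 probes were those of Hist2h2aa2 at base 569 (1.54 above the mean of the other DMSO arrays), Hist2h2bb at base 1340 (1.46), Hist1h2bg at base 554 (1.25), Hist2h3c2 (1.11), Hist1h2bc (0.70), Hist1h4i at bases 574 (0.38) and 483 (0.25), Hist3h2a (0.33) and Hist1h4h at base 24 (0.26). The lowest values, in turn, were those of Hist1h1b (-1.49), Hist1h3i (-1.47) and Hist2h2ab (-1.20). The cause was not tested.

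On a list of histone mRNA processing factors, 35 probes of 26 genes were tested, and the medians were 0.13 and 0.03 in the cordycepin comparisons. On DMSO replicate 2 the median deviation of the list was -0.32, against -0.01 to 0.08 on the other DMSO arrays. The 0.13 is not given without that array and may rest on it. Without a minimum fold, 4 probes were higher and 3 lower in cordycepin against DMSO (9.71% and 7.05% of all probes), and 1 was higher and 3 lower with LPS+cordycepin against LPS+DMSO (12.0% and 8.19%). The 4 were the probes of Ncbp2 (0.61 and 0.35), a subunit of the cap-binding complex, Snrpb (0.36), an Sm protein, and Cpsf3 (0.31), the endonuclease of pre-mRNA 3′ ends. Of the 35, 1 was called with 2-fold in each of 2 comparisons, that of Zfp473, a zinc finger protein of the U7 particle (called higher with LPS+cordycepin, 7.11% of all probes, and lower with LPS in DMSO, 2.71%). It was at 6.86, 6.29, 7.45 and 7.56 with DMSO, 5.22, 5.51, 5.76 and 5.73 with LPS+DMSO and 6.00, 6.99, 6.34 and 7.22 with LPS+cordycepin. It fell with LPS by 1.49 on the log2 scale (SE 0.29, adjusted p = 0.00227, limma) and was higher with cordycepin in LPS-treated cells by 1.08 (adjusted p = 0.0141, limma), with 2 of the 4 LPS+DMSO arrays well above background. The latter change fell below 2-fold without LPS+DMSO replicate 1 (0.97), LPS+cordycepin replicate 2 (0.96) or LPS+cordycepin replicate 4 (0.89). Lsm11, a U7 protein, was lower with cordycepin without reaching 2-fold (-0.68 ± 0.15, adjusted p = 0.00425, and -0.64 ± 0.15, adjusted p = 0.00567, limma). Its partner Lsm10 gave -0.34 ± 0.10 (adjusted p = 0.0345, limma) and -0.18 ± 0.10. The first of these no longer passed without DMSO replicate 2 (-0.26, adjusted p = 0.0867, limma), DMSO replicate 4, or replicate 2, 3 or 4 of cordycepin.

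The 2 probes of Slbp both gave 0.02 without LPS, and with LPS -0.23 ± 0.17 and -0.26 ± 0.16 (adjusted p = 0.445 and 0.329, limma). Those of Casp8ap2, which takes part in the 3′ cut, gave values between -0.11 and 0.12, those without LPS being -0.30 and -0.13 when DMSO replicate 2 was left out. The probe of Npat, the coactivator of histone transcription, was well above background on 1 array and was not tested.

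Of the replacement histones, 19 probes of 11 genes were tested. Beside H2afj, cordycepin called H1foo, the H1 of the oocyte, in LPS-treated cells (1.01 ± 0.16, adjusted p = 0.000216, limma), with 0.94 ± 0.16 in the other comparison. That is 2 of 19 probes called higher with LPS and 1 without, against 7.11% and 5.55% of all probes. H1foo lies at the 2-fold limit and was not called without LPS+DMSO replicate 4 (0.91) or LPS+cordycepin replicate 3 (0.93). H3f3b, which encodes H3.3, rose with LPS at its probe at base 966 (1.03 ± 0.10, adjusted p = 3.53e-06, limma), and its other probes gave 0.92 and 0.82 (2.15% of all probes were called higher). The probe at base 966 gave 0.98 without DMSO replicate 2. With LPS+cordycepin against LPS+DMSO the probes at bases 966 and 667 were lower by less than 2-fold (-0.54 and -0.52), and the probe farthest downstream, at base 1738, gave 0.01 ± 0.12. H3f3a, which encodes the same protein, and H2afz, which encodes H2A.Z, gave between -0.09 and 0.18 in the cordycepin comparisons and with LPS in DMSO. H2afx gave 0.29 ± 0.23 and -0.22 ± 0.23, and H1f0 0.34 ± 0.29 and -0.17 ± 0.29. Without DMSO replicate 2 the first value of H2afx was -0.03, and without LPS+cordycepin replicate 4 the second of H1f0 was 0.22.

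On a list of DNA replication genes, 63 probes of 51 genes were tested, and none was called in any of the 5 comparisons. The medians were 0.17 and 0.04 with cordycepin and 0.06 and -0.08 with LPS. On DMSO replicate 2 the median deviation of this list was -0.47, against 0.02 to 0.10 on the other DMSO arrays. The medians 0.17 and 0.06, both against DMSO, are not given without that array and may rest on it. Without a minimum fold, 2 were higher and 1 lower in cordycepin against DMSO, and 1 was higher and 3 lower with LPS+cordycepin against LPS+DMSO (limma). Of all probes, 9.71% and 12.0% were called higher and 7.05% and 8.19% lower by this criterion in these comparisons. Pcna, the sliding clamp, gave -0.04 ± 0.11 and -0.17 ± 0.11. Mcm2, a subunit of the replicative helicase, gave 0.04 ± 0.12 and 0.26 ± 0.12.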

How the data were processed

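RNA from 16 cultures was measured on Agilent 1-colour mouse arrays, and the labels gave each sample's condition and number. The authors deposited scanner files with intensity values made by Agilent Feature Extraction 10.10.1.1, per the labels, as a mean, a local background and a processed intensity that is not normalized between arrays. The authors also deposited a table of log2 values whose normalization is not given in the sources used here. That table served as an alternative (its medians were 9.55 to 9.58, and its correlation with the scanner values 0.995 to 0.998).

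The histone genes and the lists of histone mRNA processing factors, replacement histones, DNA replication genes and cell type markers were chosen with earlier results of these data known. The processed intensity was log2-transformed, outlier spots were left out, spots of a probe averaged, and the 75th percentile of the 18063 probes that every array read well above background was subtracted from each array. Current gene names came from RefSeq (GRCm38.p6) by accession (52 probes) or synonym (5), and names in the text are those of the files.

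A mean per condition was estimated from the 16 arrays in limma 3.58.1 (R 4.3.3), and p was adjusted by Benjamini-Hochberg over the 21597 probes tested. Calls required a change of 2-fold or more and an adjusted p below 0.05. On simulated data for LPS+cordycepin against LPS+DMSO with 200 of 21597 probes changed by a log2 value of 2, 190 were recovered with 1 false call. That change is larger than those of the called histone probes, and the noise was drawn independently for each array. The recovery therefore does not tell how often smaller changes would be found. The array number limits precision. Named were called probes, the highest and lowest of each histone type under cordycepin, and fixed genes of the lists.

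Per the series' design text each replicate number is a day, and per the labels its cultures shared a plate. Residuals of arrays of one number correlated by 0.19 on average (-0.07 to 0.42, with 20 of 24 over 0.1). The correlation was 0.17 between numbers that shared a slide and -0.18 across slides. Replicates 1 and 2 were on slide 1, replicates 3 and 4 on slide 2. Alternatives were other scalings, filters, probe summaries, thresholds, variance models, blocks and left-out arrays. Python 3.11.15 with scipy did the permutation tests.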

Additional observations from a re-analysis of the deposited data

Results flagged for a closer look

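Of 136 sets of 4 arrays checked (20 histone probes and 14 list genes in 4 conditions), 10 held an array far from the other three by Dixon's criterion at its 95% level, where chance, at about 1 in 20, gives 6.8. Among histone probes, Hist2h3c2 was at 9.57 on DMSO replicate 2, against 8.41 to 8.54 on the other DMSO arrays. Hist2h2aa2 at base 569, the probe with the stem-loop, was at 13.14 on the same array (the others, 11.49 to 11.68) and at 11.24 on LPS+cordycepin replicate 2 (the others, 11.48 to 11.51). Hist1h4i at base 483 was at 10.17 on DMSO replicate 2 (the others, 9.90 to 9.94) and at 9.03 on LPS+cordycepin replicate 2 (the others, 10.04 to 10.12). Hist1h2bc was at 12.89 on LPS+DMSO replicate 4 (the others, 13.35 to 13.40). Among replacement histones, DMSO replicate 2 was low for H2afx (12.68, the others 13.90 to 14.04) and for H1foo (6.32, the others 6.93 to 6.99). H1f0 was at 8.17 on cordycepin replicate 2 (the others, 8.58 to 8.59) and at 7.26 on LPS+cordycepin replicate 4 (the others, 8.72 to 8.90). DMSO replicate 2 thus held 5 of the 10.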

How the results depend on the processing

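The counts of called histone probes changed under few alternatives. With normexp background correction no probe was called higher in cordycepin against DMSO (Hist2h2be at 0.99, just under 2-fold), and 1 was called lower with LPS+cordycepin against LPS+DMSO (Hist2h3c2 at -0.79, adjusted p = 0.0740). An adjusted p under 0.01 and the methods' t-test after Benjamini-Hochberg adjustment also left 1 there, again without Hist2h3c2. With no minimum fold 1 probe was called lower in cordycepin against DMSO and 1 in LPS+cordycepin against cordycepin. Without single arrays or days, the lower calls with LPS+cordycepin against LPS+DMSO were 1 to 2, and those in LPS+cordycepin against cordycepin 0 to 1. Hist2h3c2 was lost without replicate 3 (adjusted p = 0.0534), without replicate 4 (-0.79) and without LPS+cordycepin replicate 4 (-0.78), and Hist1h2aa was called without replicate 4 (-1.06). The other counts stayed at their values without any array or day. Over the 18 alternatives that kept all arrays, Hist2h2be gave 1.20 to 1.52 with LPS, and Hist3h2a -1.36 to -1.08. Without LPS, Hist3h2a gave -0.82 to -0.69, with an adjusted p of 0.605 under scaling to spiked-in controls. With the replicate number as a block the calls were the same in number (1 higher, and 2 lower with LPS), and the block and the slide block changed no other call.

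Scaling to spiked-in controls moved the median of all probes from -0.05 to -0.36 in LPS+cordycepin against cordycepin and that of the histone probes from -0.29 to -0.60. In LPS+cordycepin against LPS+DMSO it moved the median of all probes from 0.03 to -0.12, and the 75th percentile over all probes to -0.09. In the LPS comparisons the share of all calls that were higher moved with the scaling, in DMSO from 44.2% to 58.2% with normexp and 58.5% with the authors' values, and in cordycepin from 54.8% to 39.1% with spiked-in controls and 77.6% with normexp. The cause was not tested.

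Without single arrays or days, the histone medians ran from -0.07 to 0.22 for cordycepin against DMSO, from -0.12 to 0.08 for LPS+cordycepin against LPS+DMSO, from -0.34 to -0.06 and from -0.35 to -0.18 for LPS in DMSO and in cordycepin, and from -0.27 to 0.06 for the interaction. Values near 0 changed sign under some settings, and none of them was called. With LPS these were Hist2h2ab (-0.18 with quantile normalization, -0.11 with spiked-in controls, -0.08 with the percentile over all probes, -0.13 with the authors' values), Hist2h2ac (-0.07 and -0.04 with those controls and that percentile), Hist1h2ah (-0.01 with spiked-in controls), Hist2h2bb at base 1340 (-0.11 and -0.08) and Hist1h2be (0.05 with normexp). Without single arrays or days, the values with LPS ran from -0.09 to 0.18 for Hist2h2ab, from -0.05 to 0.20 for Hist2h2ac, from -0.01 to 0.26 for Hist1h2ah, from -0.11 to 0.14 for Hist2h2bb and from -0.14 to 0.04 for Hist1h2be. Without LPS they ran from -0.18 to 0.53 for Hist1h1b, from -0.34 to 0.03 for Hist1h1c, from -0.05 to 0.25 for Hist2h2ac and to 0.05 for Hist1h2bc, in each but Hist1h1c because of DMSO replicate 2. In a check added after seeing the data, without DMSO replicate 2 H2afx turned to -0.03 in cordycepin against DMSO, and without LPS+cordycepin replicate 4 H1f0 turned to 0.22 with LPS.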
